A study of Cavia porcellus with 6 samples.

Results

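This report describes 47 guinea pig genes whose products carry newly made secretory proteins into the endoplasmic reticulum (ER), trim and glycosylate them there, and export them to the Golgi in COPII-coated carriers. The genes were chosen by symbol from a fixed list of 48, of which Srp54 was not analysed here, out of 32193 genes in the deposited table of read counts. The libraries come from the posterior pole of the sclera, the tough collagenous shell of the eye, of guinea pigs (Cavia porcellus). Each group is made of 3 right eyes taken at day 28: those of form-deprived animals (FDM), a model of myopia in which the eye sees no sharp image, and those of controls (NC). Strain, age and the manner of covering the eye were not stated, and no library is labelled as treated with the quercetin of the series title. Nothing in the labels says that the libraries of a group were pooled.

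A protein destined for secretion is recognised as it leaves the ribosome by the signal recognition particle, handed to the Sec61 channel, freed of its signal peptide by signal peptidase and given N-linked sugars by oligosaccharyltransferase. The GTPase Sar1 then starts the COPII coat, in which Sec23 and Sec24 form the inner layer that binds cargo and Sec13 and Sec31 the outer cage. Procollagen, the main export product of scleral fibroblasts, is a stiff rod longer than an ordinary COPII vesicle is wide. Its exit needs the receptor TANGO1, encoded by Mia3, and its partner cTAGE5, encoded by Mia2. KDEL receptors return ER residents that escape with the cargo.

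The libraries held 10377397 to 17534982 counts, and CPM values below (counts scaled to a common library size) were adjusted by TMM library sizes. FDM 1 and NC 1 stood apart, with 12783 and 14416 genes detected against 17689 to 20591 in the other 4 libraries. The tissue itself varied within each group. Skeletal muscle markers summed to 105.9 CPM in NC 1 and to 9584 to 72114 CPM elsewhere, with Myh2 and Myh4 at 0 in NC 1. Photoreceptor markers summed to 229.2 CPM in FDM 1, where Pde6a, Pde6b and Rom1 were at 0, and to 25303 CPM in NC 2. All 9 scleral fibroblast markers were measured in every library and summed to 5917 CPM in NC 2 and 60340 CPM in FDM 3. In such bulk tissue, fewer cells of a type and less RNA per cell cannot be told apart.

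The comparison of FDM with NC asks whether the export machinery differs in the form-deprived sclera. Sec61a1, Sec23a and Mia3, which mark the steps of the route, were counted in every library. No member passed. In edgeR's quasi-likelihood test 0 of 47 members reached an adjusted p below 0.05, beside 0 of 16348 genes tested (0%), and the adjusted p of every member was 0.999999. At an unadjusted p below 0.05 edgeR's test gave 0 members, beside 0.954% of all genes. DESeq2, run on all genes with any count, also called 0 members at an adjusted p below 0.05. This stood beside 24 of the 22180 genes to which it gave an adjusted p (0.108%). The smallest unadjusted p among members in edgeR's test was 0.0904, of Kdelr3.

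Fold changes of the export genes were small. The log2 fold change, FDM against NC, lay within 0.5 of 0 for 41 members (87.2%), against 55.1% of all genes tested, which were not matched to the members for expression level. The median member had 0.17 and the median gene 0.02. Values above 0 were found for 36 members (76.6%), beside 51.2% of all genes. When libraries were scaled by total count alone the median of all genes moved to -0.23 and that of the members to -0.07. Then 18 of 47 members were above 0, beside 34.3% of all genes. Relative to the median of all genes the members' median was 0.15 higher under either scaling. Without NC 2 the members' median was 0.08 higher, with 31 of 47 members above the median of all genes. Without FDM 3 the members' median was -0.06 and 21 of 47 were above 0, while the median of all genes was -0.18 and 42.1% were above 0.

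The direction of most single members depended on the libraries included. With each library left out in turn, 17 members kept the sign of their fold change, 14 above 0 and 3 below, and the remaining members changed it at least once. FDM 3 had the highest CPM of the 6 libraries for 19 members and FDM 1 the lowest for 17. For 1 member, Rpn1, the lowest FDM library exceeded the highest control, beside 2.73% of all genes, and for 0 members the order was the reverse, beside 2.81%. With libraries scaled by total count alone, 0 members lay above every control, beside 1.15% of all genes, and 3 members (Srprb, Sec62 and Spcs3) lay below, beside 5.73%. The coefficient of variation over the 6 libraries had a median of 32.8% for the members and of 54.0% for the 14553 tested genes whose mean CPM lay within the members' range. These genes are not matched for level, since the range starts at Spcs1, with a mean of 1.72 CPM. Mean log2 CPM was 5.94 in FDM and 5.79 in NC for the members, against 3.65 and 3.85 for all genes tested. Whether level accounts for the smaller spread was not tested. The rule for naming genes took 33 members, and the other 14 are given, with their values known, where they complete a complex.

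**Figure D1:**
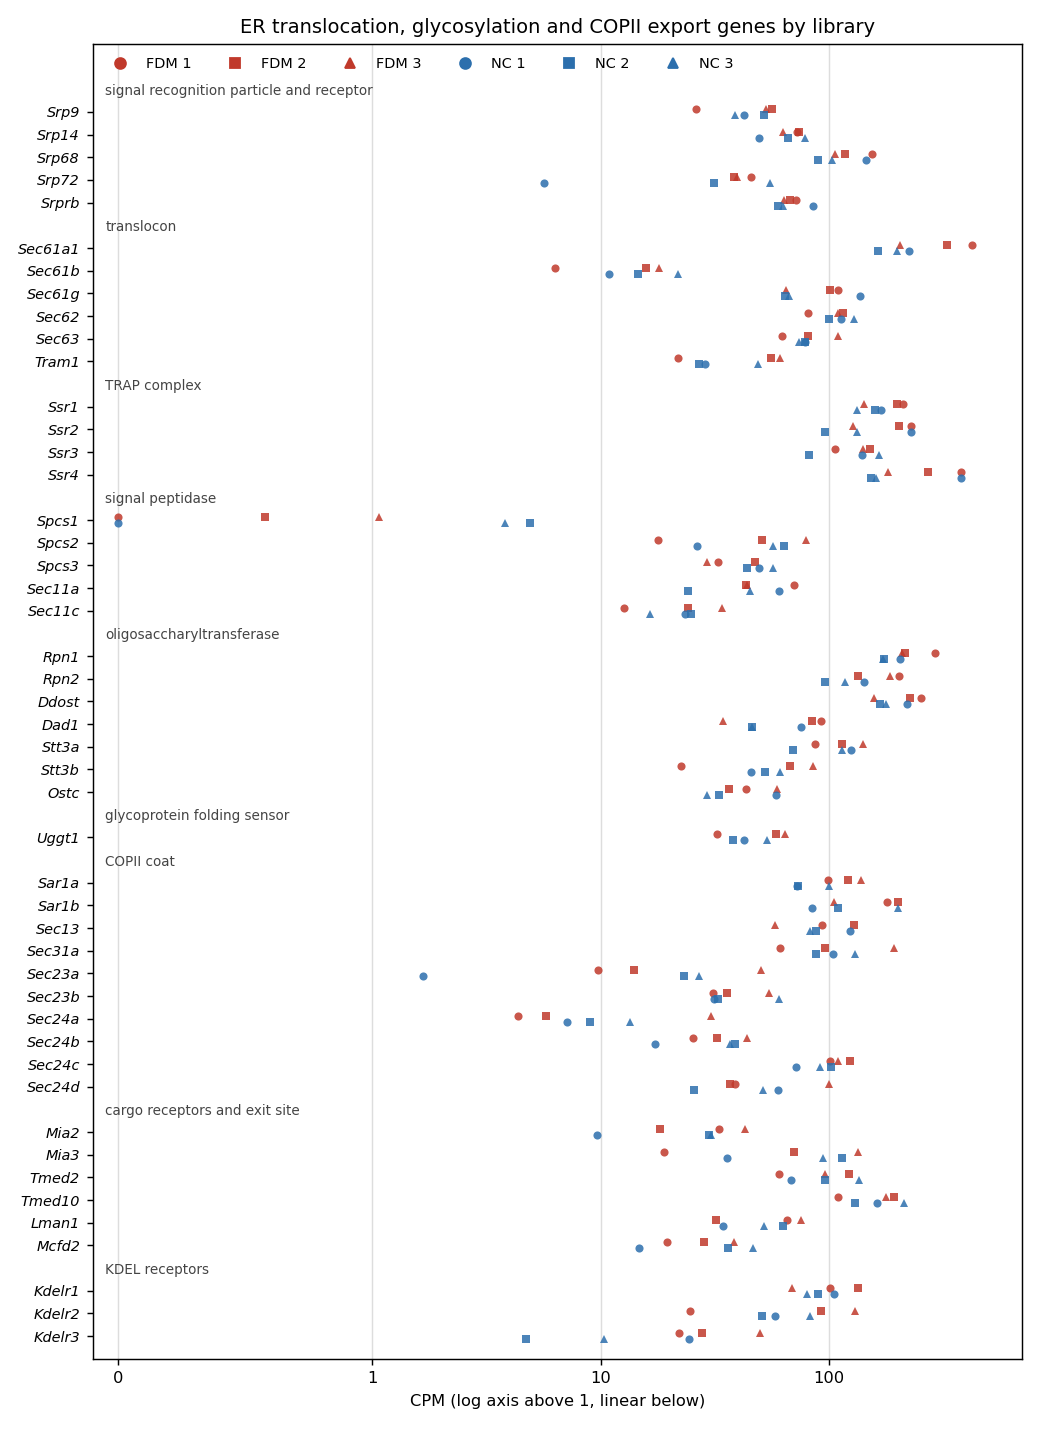
Level of each of the 47 export genes in the 6 libraries, in CPM on an axis that is logarithmic above 1 and linear below, by role. Red marks are FDM and blue marks NC, and the marker shape gives the library number. On this TMM-adjusted scale FDM and NC marks overlap for all members except Rpn1, Sec23a and Srp72 have an NC 1 mark far to the left, and Spcs1 is at 0 in FDM 1 and NC 1.

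**Figure D2:**
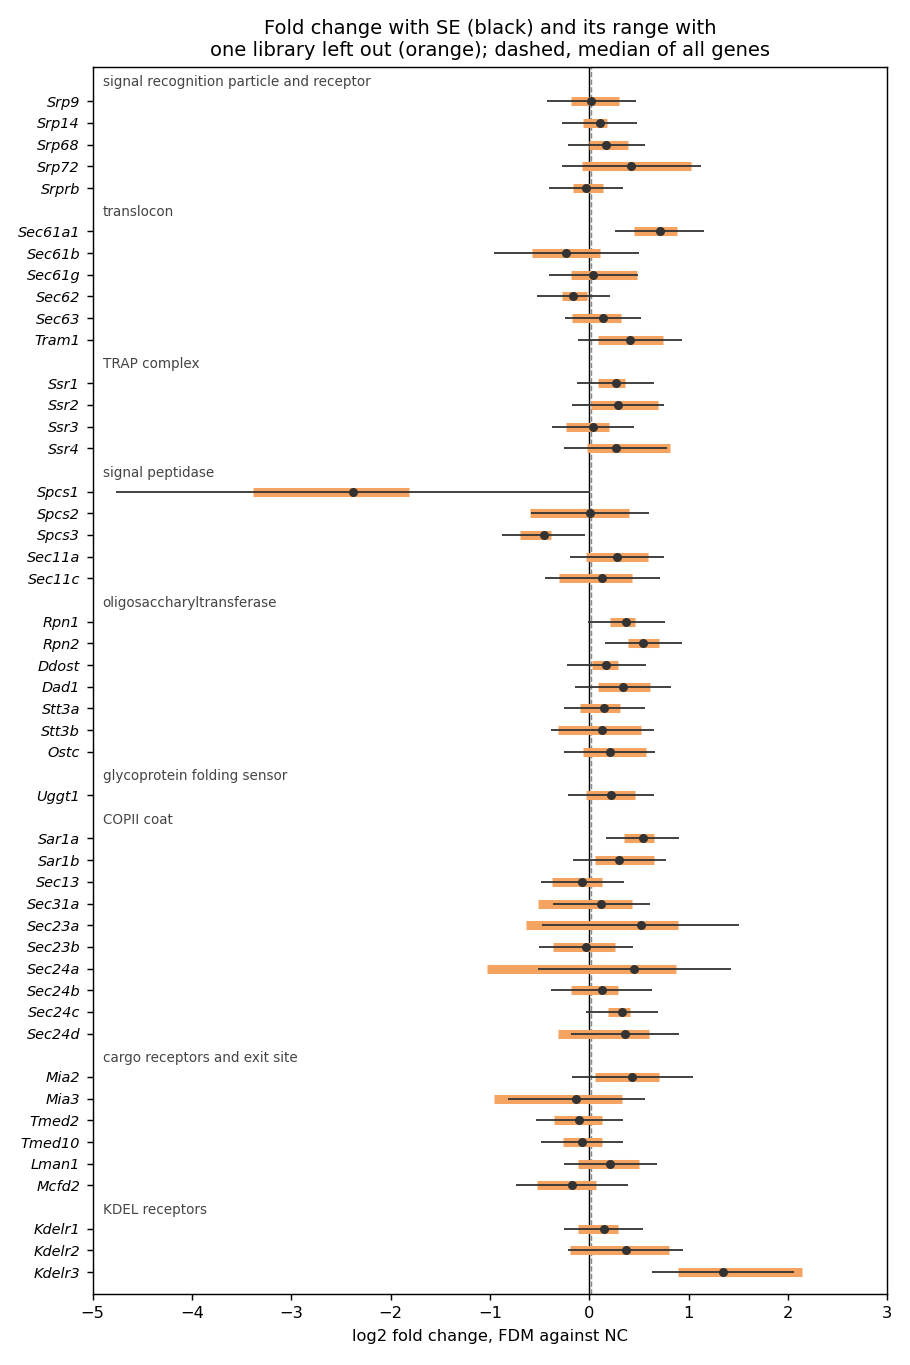
Log2 fold change of each member, FDM against NC, with its SE as a black line. The orange bar spans the values obtained with each library left out in turn. The dashed line marks the median of all genes at 0.02, and 41 of 47 members lie within 0.5 of 0.

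Among the genes of the signal recognition particle and its receptor, 4 of 5 had values above 0, with a median log2 fold change of 0.10, and 1 of 5 with total-count scaling. Srp72 and Srp68 encode a pair of protein subunits that bind the particle's RNA together. Srp68 read 153.7, 117.6 and 106.3 CPM in FDM 1, 2 and 3 and 144.4, 88.8 and 102.3 CPM in NC 1, 2 and 3. Srp72 read 45.2, 38.4 and 39.7 CPM in FDM and 5.67, 31.4 and 54.9 CPM in NC. The low value of Srp72 in NC 1 came from 58 counts, and Srp68 was not low there. The log2 fold change of Srp72 was 0.42 ± 0.70 (SE), but -0.08 without NC 1. Srprb, which anchors the receptor in the ER membrane, read 59.6 to 84.6 CPM over all libraries and was the steadiest member, with a coefficient of variation of 13.2%.

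Of the translocon genes 4 of 6 had values above 0, with a median of 0.09, and 2 of 6 with total-count scaling. Sec61a1, which encodes the channel itself, read 422.4, 326.9 and 203.2 CPM in FDM and 222.9, 162.8 and 197.4 CPM in NC. FDM 1 and FDM 2 lay above every control, while FDM 3 lay between NC 1 and NC 3. The means were 317.5 ± 110 CPM and 194.4 ± 30.2 CPM (SD, n = 3), and the log2 fold change was 0.71 ± 0.45 (SE). It was above 0 with any single library left out, from 0.45 without FDM 1 to 0.89 without FDM 3. With total-count scaling it was 0.44, and FDM 3, at 200.2 CPM, lay under NC 1 and NC 3. The small subunit gene Sec61b did not share this order, with 6.31, 15.8 and 18.1 CPM in FDM and 10.9, 14.6 and 21.7 CPM in NC. Its log2 fold change was -0.23 ± 0.73 (SE), and 0.11 without FDM 1. The third channel subunit gene, Sec61g, had 0.04 ± 0.45, and Sec62 and Sec63, partners of the channel in post-translational import, had -0.16 ± 0.37 and 0.14 ± 0.38. Tram1, a membrane protein beside the channel, had 0.41 ± 0.52, and 0.08 without FDM 3.

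The 4 genes of the TRAP complex, which helps some signal sequences open the channel, had log2 fold changes of 0.04 to 0.29 with a median of 0.26, and 2 of 4 were above 0 with total-count scaling. Ssr4 read 377.4, 269.5 and 180.8 CPM in FDM and 376.0, 152.9 and 159.7 CPM in NC. Its highest values were thus in FDM 1 and NC 1, and the difference between these libraries and the others of their group exceeded that between the groups. Ssr3 read 105.7, 150.6 and 139.9 CPM in FDM and 138.9, 81.5 and 165.1 CPM in NC, with a log2 fold change of 0.04 ± 0.41 (SE). Ssr1 and Ssr2 had 0.26 ± 0.38 and 0.29 ± 0.46.

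Signal peptidase, in which a catalytic subunit encoded by Sec11a or Sec11c joins the Spcs partners, had 3 of 5 genes above 0 and a median log2 fold change of 0.01, and 1 of 5 above 0 with total-count scaling. Spcs3, the partner whose relative in yeast is needed for activity, read 32.7, 47.4 and 29.1 CPM in FDM and 49.5, 43.6 and 57.0 CPM in NC. The means were 36.4 ± 9.70 CPM and 50.0 ± 6.71 CPM (SD, n = 3), and the log2 fold change was -0.46 ± 0.42 (SE). The value ranged from -0.70 to -0.39 with single libraries left out and was -0.71 with total-count scaling. Spcs2 had 0.01 ± 0.59, Sec11a 0.28 ± 0.48 and Sec11c 0.13 ± 0.58.

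Spcs1 was nearly uncounted, with 0, 8 and 17 counts in FDM and 0, 81 and 73 in NC. FDM 1 and NC 1 had none, so the groups overlap, and the log2 fold change of -2.38 ± 2.39 (SE) rests on 4 libraries. In the RefSeq annotation of assembly mCavPor4.1, used here for names and neighbours only, each member's listed span was set against those of the 6 genes listed on either side of it, which need not hold every overlap. The span of Spcs1 lies within that of Nek4, the only such case found in that search. Nek4 had 20 to 283 counts. How reads in shared spans were counted was not stated, so the level of Spcs1 is uncertain. In the same search another 7 members overlapped a neighbouring gene in part, among them Kdelr3, which overlaps Ddx17, Rpn2, which overlaps Mroh8, and Sec23a. Without a strand setting, reads in the overlaps cannot be told apart.

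Oligosaccharyltransferase genes were all above 0, at 7 of 7, with log2 fold changes of 0.13 to 0.54 and a median of 0.21. With total-count scaling 3 of 7 were above 0, and Ddost, Stt3a, Stt3b and Ostc were at -0.09, -0.06, -0.09 and -0.01. Rpn1, a large membrane subunit, read 288.6, 215.4 and 208.6 CPM in FDM and 204.9, 172.8 and 172.4 CPM in NC. The groups did not overlap on this scale, though FDM 3 and NC 1 were close. Scaled by total count alone, Rpn1 read 243.0, 198.6 and 205.5 CPM in FDM and 201.8, 206.9 and 188.7 in NC, which overlap, and its log2 fold change was 0.11. The means were 237.6 ± 44.4 CPM and 183.4 ± 18.6 CPM (SD, n = 3), and the log2 fold change was 0.37 ± 0.39 (SE). Its companion Rpn2 read 200.9, 134.1 and 184.6 CPM in FDM and 142.6, 96.1 and 117.5 CPM in NC. FDM 1 and FDM 3 were above every control and FDM 2 was below NC 1, and the log2 fold change was 0.54 ± 0.39 (SE), 0.39 to 0.70 with single libraries left out. With total-count scaling it was 0.30, and FDM 2, at 123.6 CPM, lay under NC 1 and NC 3.

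The catalytic subunit genes had smaller values. Stt3a, whose product glycosylates chains as they pass the channel, had 0.15 ± 0.40 (SE), but -0.09 without FDM 3 or NC 2. Stt3b, whose product acts on sites the first enzyme skipped, read 22.4, 67.0 and 84.6 CPM in FDM and 45.4, 52.4 and 61.0 CPM in NC, and its log2 fold change was 0.13 ± 0.52 (SE). FDM 1 was its lowest library, and without it the value was 0.52. The accessory subunit genes Dad1, Ddost and Ostc had 0.34 ± 0.48, 0.17 ± 0.40 and 0.21 ± 0.46. Uggt1, the glucosyltransferase that marks misfolded glycoproteins for another folding round, read 32.4, 58.7 and 63.9 CPM in FDM and 42.2, 37.8 and 53.3 CPM in NC. Its log2 fold change was 0.22 ± 0.43 (SE), but -0.03 without FDM 3.

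COPII coat genes had 8 of 10 values above 0 and a median log2 fold change of 0.31, with no member past the test, and 6 of 10 above 0 with total-count scaling. Sar1a, a GTPase that starts the coat, read 98.5, 120.3 and 137.3 CPM in FDM and 72.5, 73.1 and 99.9 CPM in NC. FDM 1 lay just under NC 3 and the other FDM libraries lay above all controls. The means were 118.7 ± 19.5 CPM and 81.8 ± 15.7 CPM (SD, n = 3), and the log2 fold change was 0.54 ± 0.37 (SE), 0.35 to 0.65 with single libraries left out. With total-count scaling it was 0.29, and FDM 1, at 82.9 CPM, lay under NC 2 and NC 3. Sar1b, a gene related to Sar1a, had 0.30 ± 0.47 (SE), and 0.02 with total-count scaling. Sec24c had 0.33 ± 0.36 (SE) and lay at 71.8 to 123.5 CPM in all libraries. The cage genes Sec13 and Sec31a had -0.07 ± 0.42 and 0.12 ± 0.48.

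Of the inner coat genes, Sec23a, Sec24a, Sec24b and Sec24d were each highest in FDM 3. Sec23b was highest in NC 3 and Sec24c in FDM 2. Sec23a, whose loss impairs collagen export and skull formation in people, read 9.76, 13.9 and 50.4 CPM in FDM and 1.66, 23.0 and 27.0 CPM in NC. The NC 1 value came from 17 counts, and FDM 1 and FDM 2 lay between NC 1 and NC 2. Its log2 fold change was 0.52 ± 0.99 (SE), but -0.63 without FDM 3. Sec24a read 4.34, 5.77 and 30.4 CPM in FDM and 7.14, 8.95 and 13.5 CPM in NC, with a log2 fold change of 0.45 ± 0.97 (SE), but -1.03 without FDM 3. Sec24d, needed for procollagen export in fish and mutated in a human bone fragility syndrome, read 38.6, 37.0 and 99.8 CPM in FDM and 59.4, 25.7 and 51.5 CPM in NC. FDM 1 and FDM 2 lay within the control range, and its log2 fold change was 0.36 ± 0.54 (SE) and -0.32 without FDM 3. Sec24b had 0.12 ± 0.51, but -0.19 without FDM 3, and Sec23b had -0.03 ± 0.47.

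Cargo receptor and exit site genes had 2 of 6 values above 0 and a median log2 fold change of -0.09, and 1 of 6 above 0 with total-count scaling. Mia3 read 18.8, 70.1 and 133.5 CPM in FDM and 35.7, 113.3 and 94.2 CPM in NC. The lowest value of each group was in its library 1, and FDM 3 was the highest of all. The means were 74.1 ± 57.4 CPM and 81.1 ± 40.4 CPM (SD, n = 3), which differ by less than either SD, and the log2 fold change was -0.13 ± 0.69 (SE), from -0.96 without FDM 3 to 0.33 without FDM 1. Its partner Mia2 read 32.9, 18.3 and 43.0 CPM in FDM and 9.59, 29.7 and 30.5 CPM in NC. Its log2 fold change was 0.43 ± 0.61 (SE). Tmed10, a p24 cargo receptor, had -0.08 ± 0.42, and Mcfd2, which with Lman1 forms the receptor for coagulation factors, had -0.18 ± 0.56, and 0.04 without FDM 1. Tmed2 had -0.10 ± 0.44 and Lman1 0.21 ± 0.47.

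The KDEL receptor genes held the largest positive value of all members. Kdelr3 read 22.1, 27.7 and 49.9 CPM in FDM and 24.3, 4.72 and 10.3 CPM in NC. NC 2 and NC 3 lay below every FDM library, and NC 1 lay between FDM 1 and FDM 2. The means were 33.2 ± 14.7 CPM and 13.1 ± 10.1 CPM (SD, n = 3), and the log2 fold change was 1.35 ± 0.71 (SE; edgeR, unadjusted p = 0.0904, adjusted p = 0.999999). It was 0.89 without FDM 3, 0.92 without NC 2 and 2.14 without NC 1. Kdelr2 read 24.5, 92.3 and 128.9 CPM in FDM and 57.7, 50.6 and 82.4 CPM in NC, with 0.37 ± 0.58 (SE), but -0.19 without FDM 3. Kdelr1 had 0.14 ± 0.40, and -0.11 with total-count scaling.

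Several of these proteins come as pairs of related genes, and the ratio of their counts within a library does not depend on how libraries are scaled. For 9 such pairs the log2 ratio was compared between the groups by an exact two-sided permutation test over samples, which with 3 against 3 libraries cannot give a p under 0.1. Gene length enters each ratio, so only differences between libraries are read from it. For no pair did the FDM and NC ratios separate, and the smallest p was 0.3 (exact permutation test; 1 after Benjamini-Hochberg adjustment over 9 pairs). That pair was Kdelr3 over Kdelr1, with mean log2 ratios of -1.64 ± 1.03 for FDM and -3.10 ± 1.07 for NC (SD, n = 3), which differ by 1.46. The ratio of Mia3 to Mia2 was -0.80 in FDM 1 and lay between 1.63 and 1.94 in the other 5 libraries. In FDM 1 Mia3 was thus low while Mia2 was not. The ratio of Sec23a to Sec23b was -4.19 in NC 1 and -1.67 to -0.11 elsewhere, and Sec23b itself read 31.2 CPM in NC 1 against 31.1 to 60.1 CPM elsewhere. The ratio of Sec24c to Sec24d was lowest in FDM 3, at 0.13, and NC 1, at 0.27, and highest in NC 2, at 1.99.

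**Figure D3:**
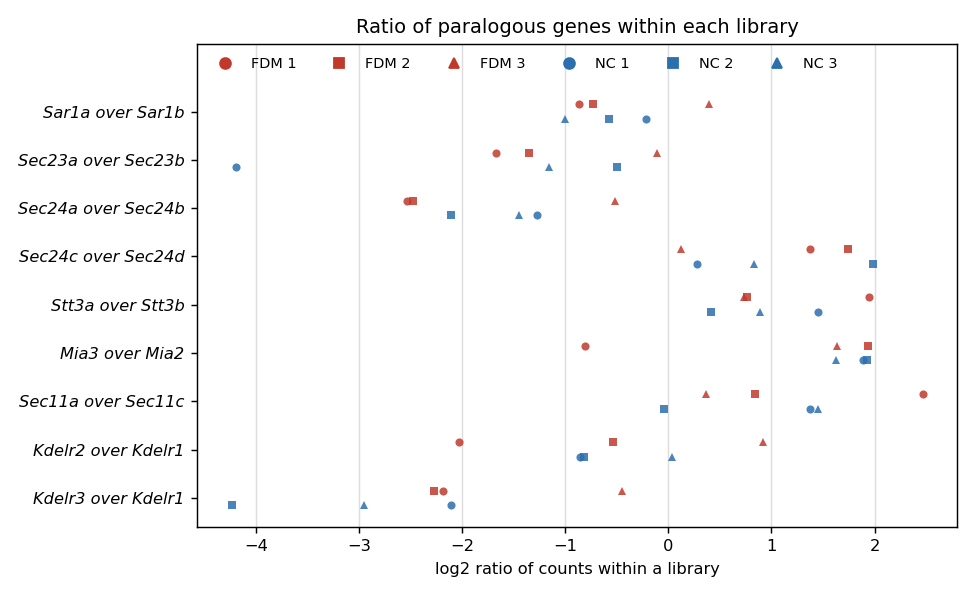
Log2 ratio of the counts of 9 pairs of related genes within each library, with 0.5 added to each count. Red marks are FDM, blue marks NC, and shapes give the library number. The groups overlap for all 9 pairs, with FDM 1 apart for Mia3 over Mia2 and NC 1 apart for Sec23a over Sec23b.

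The summed level of the machinery varied less than that of its main cargo. The summed level of 9 collagen genes, among them Col1a1 and Col1a2, was 34606, 17039 and 58975 CPM in FDM and 52249, 5755 and 15459 CPM in NC. The summed level of the 47 members was 4238, 4479 and 4288 CPM in FDM and 3980, 3268 and 3946 CPM in NC. The collagen sum thus spanned a 10.2-fold range and the members' sum a 1.37-fold range. The sums hold unlike numbers of genes, and single members could range more widely. Apart from Spcs1, 6 members ranged over 5-fold, up to 30.3-fold for Sec23a, and 15 stayed within 2-fold. The other genes of the route, given below, summed to 4496 to 5372 CPM. The members' sums were higher in each FDM library than in any NC library on the TMM scale, while as shares of all counts, without TMM, they were 0.357%, 0.413% and 0.422% in FDM and 0.392%, 0.391% and 0.432% in NC, and overlapped. The 9 ER stress genes summed to 1403, 900.5 and 1924 CPM in FDM and 597.8, 552.4 and 820.5 CPM in NC, with no overlap on the TMM scale, and to 1181, 830.3 and 1895 CPM in FDM and 588.8, 661.4 and 898.2 in NC without TMM, where FDM 2 lay below NC 3. Hspa5, the main ER chaperone, made up 41.7% to 60.4% of the sum in FDM and 25.2% to 37.4% in NC. On the TMM scale 4 of the 9 (Hspa5, Xbp1, Ddit3 and Manf) lay higher in every FDM library, beside 2.73% of all genes, and 4 overlapped. Atf6, a sensor of unfolded protein, lay lower in every FDM library (beside 2.81%), with a log2 fold change of -0.64. With total-count scaling 3 lay higher (beside 1.15% of all genes), Ddit3 overlapped and Atf6 still lay lower (beside 5.73%). In this list 0 of 9 genes passed edgeR's test, 4 had an unadjusted p below 0.05 in it (beside 0.954% of all genes), and its median log2 fold change was 0.61. The list was chosen with earlier results of these data known, so its counts describe these genes and do not test the list.

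**Figure D4:**
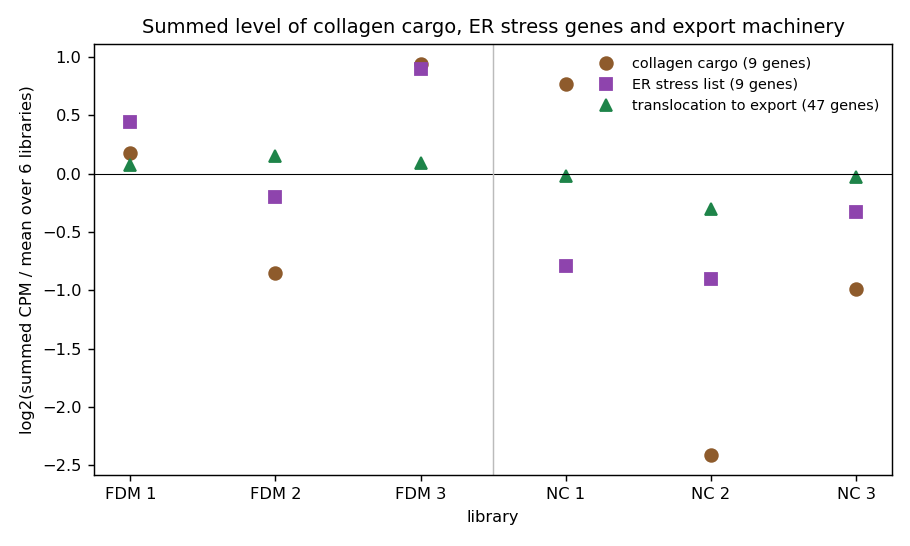
Summed CPM of 9 collagen genes, 9 ER stress genes and the 47 export genes in each library, as the log2 ratio to the mean over the 6 libraries. The collagen sum spans a 10.2-fold range and is lowest in NC 2 and highest in FDM 3, while the sum of the export genes spans a 1.37-fold range.

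No relation of a single gene to the collagen level across libraries passed adjustment. The log2 CPM of each of 16348 genes was correlated with the mean log2 CPM of the collagen list over the 6 libraries, and p came from all 720 permutations of the libraries. The relation, and those to fibroblast markers and ER stress genes below, were examined after the values had been seen. Of the members, 28 of 47 (59.6%) had a positive r, beside 39.7% of all genes. At an unadjusted permutation p below 0.05 stood 4 members (8.51%), beside 2.62% of all genes, and after Benjamini-Hochberg adjustment over all genes 0 genes passed.

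These 4 members were Kdelr3, Sec24d, Stt3a and Ostc, and for each the library highest in collagen, FDM 3, was also the highest. For Sec24d Pearson r was 0.92 (permutation p = 0.0222, adjusted p = 1 over all genes) and Spearman rho 0.83 (permutation p = 0.0583). Without NC 2 and FDM 3, the libraries farthest from the median collagen level, r was 0.56. For Kdelr3 r was 0.92 (permutation p = 0.0181) with rho 0.83 and 0.45 without these libraries. Stt3a had r of 0.87 (permutation p = 0.0292), rho of 0.83 (permutation p = 0.0583) and 0.19 without them, so these 3 relations rest in large part on NC 2 and FDM 3. Ostc, a subunit of the Stt3a form of the enzyme, had r of 0.79 (permutation p = 0.0458), rho of 0.94 (permutation p = 0.0167) and 0.96 without them. Each group holds 3 libraries and each replicate number 2, too few for a relation within them.

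Against the other fibroblast markers of the list (Dcn, Lum, Fmod, Kera, Pdgfra and Thy1) 1 member (2.13%) stood at an unadjusted permutation p below 0.05, beside 2.94% of all genes. It was Sec24d, one of the 4 genes above, with r of 0.95 (permutation p = 0.0014, the smallest that 720 permutations can give, and 1 adjusted over all genes). Against the ER stress list 1 member (2.13%) stood at that level, beside 5.15% of all genes. It was Sar1a, with r of 0.84 (permutation p = 0.0319, 0.929 adjusted over all genes), rho of 0.83 and r of 0.60 without FDM 3 and NC 1. Neither share at that level exceeded that of all genes. A positive r was found for 30 of 47 members (63.8%, beside 49.6% of all genes) against these fibroblast markers. Against the ER stress list it was found for 31 of 47 (66.0%, beside 47.5%).

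**Figure D5:**
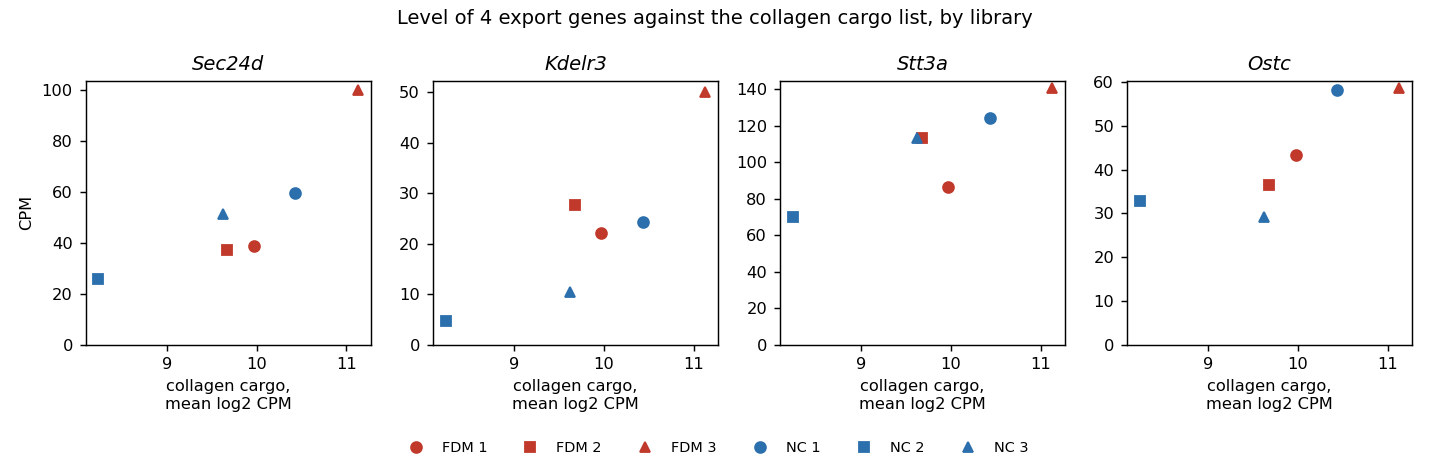
CPM of Sec24d, Kdelr3, Stt3a and Ostc in each library against the mean log2 CPM of 9 collagen genes. Red marks are FDM and blue marks NC. FDM 3 is highest on both axes in each panel, and Pearson r on log2 values is 0.92, 0.92, 0.87 and 0.79.

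The other genes of the same route were read from lists beside the members. In 4 further lists of 79 genes, 77 were tested, 0 passed edgeR's test in either direction, and 46 had a log2 fold change above 0 (59.7%, beside 51.2% of all genes) with a median of 0.07, or 29 of 77 with total-count scaling. Of 22 other N-glycosylation genes 16 were above 0 (13 with total-count scaling), with a median of 0.28 and Krtcap2, an oligosaccharyltransferase subunit gene, at 0.71 ± 0.46 (SE). Of 28 other genes of ER to Golgi traffic 18 were above 0 (10 with total-count scaling), with a median of 0.18 and the tethering factor gene Trappc3 at -0.82 ± 0.48. Of 17 other targeting and insertion genes 6 were above 0 (4 with total-count scaling), with a median of -0.10 and Tram2, a relative of Tram1, at 1.56 ± 1.07. Tram2 read 20.7, 8.30 and 7.59 CPM in FDM and 2.94, 3.21 and 6.20 CPM in NC, without overlap. Of 10 genes of the COPI coat, which carries cargo back to the ER, 6 were above 0 (2 with total-count scaling) and Copb2 had the smallest unadjusted p of all these genes, 0.0538 in edgeR's test. Copb2 read 107.4, 90.8 and 71.4 CPM in FDM and 26.3, 46.1 and 64.1 CPM in NC. Its log2 fold change was 0.98 ± 0.44 (SE) with no overlap of the groups. In these lists 5 genes lay higher in all FDM libraries, or 6.49% of the 77, beside 2.73% of all genes, and 3 lay lower (3.90%, beside 2.81%). With total-count scaling these counts were 2 and 5 of the 77, beside 1.15% and 5.73% of all genes.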

How the data were processed

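RNA was sequenced from 6 scleral libraries, grouped and numbered by their titles. The authors deposited a table of raw counts. The submitters' processing notes name Trimmomatic, STAR and HTSeq, without order or version. Build, annotation, counting mode and strand were not stated there, and no coordinates or sequences are printed. Each group holds right eyes only, so each library was taken as 1 animal.

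The test was run with edgeR 4.0.16 in R 4.3.3 (filterByExpr, TMM, robust quasi-likelihood test, Benjamini-Hochberg over 16348 genes, called below 0.05), with DESeq2 1.42.0 and limma 3.58.1 as alternatives. All 47 members passed the filter. The code was tested on simulated data, with recovery required only at a dispersion of 0.05. Data with a wider dispersion were also simulated, but no recovery was required there. The power at the spread of these data is not given here. The SE is the absolute log2 fold change over the square root of F. Log2 CPM has a prior count of 2. SD and SE give the precision, and the common biological coefficient of variation was 0.933. Of 32193 rows, 9738 had no count, and no row held unassigned reads.

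Named genes were Sec61a1, Sec23a, Mia3, members without overlap of the groups, the 6 highest and 6 lowest fold changes, all paired genes, the highest and lowest mean CPM of each role and, in other lists, the smallest p. Members and lists were chosen with earlier results of these data known. Marker lists for pigment epithelium, melanocytes, endothelium, macrophages and glia, and a list of collagen secretion helpers, had 0 genes past edgeR's test. Alternatives were other tools, scalings and filters, a replicate block and each library left out. The fit without both libraries numbered 1 was added after seeing the data.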

Additional observations from a re-analysis of the deposited data

How the results depend on the processing

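Under the alternatives run, 0 members were called by any tool, scaling, filter, replicate block or with any library left out. Calls over all genes numbered 24 with DESeq2 and 0 in the other fits. Members above 0 numbered 18 with total-count scaling (beside 34.3% of all genes), where their median was -0.075, and 32 to 36 with the other tools, scalings and filters. With single libraries left out they numbered 21 (without FDM 3, beside 42.1% of all genes) to 40 (without FDM 1, beside 53.9%). Members above the median of all genes numbered 28 to 36 in those fits. Fold changes that changed sign were, in DESeq2, Srp9 -0.032 and Spcs2 -0.044, with RLE scaling Srp9 -0.033 and Spcs2 -0.044, in limma-voom Srp9 -0.0058, Spcs2 -0.12, Stt3b -0.015 and Sec31a -0.015 and with no filter Srp9 -0.062, Sec61g -0.014, Ssr3 -0.021 and Spcs2 -0.088. With total-count scaling they were Srp9 -0.22, Srp14 -0.17, Srp68 -0.075, Sec61g -0.19, Sec63 -0.10, Ssr1 -0.0011, Ssr3 -0.18, Spcs2 -0.24, Sec11c -0.093, Ddost -0.088, Stt3a -0.061, Stt3b -0.088, Ostc -0.0067, Uggt1 -0.0085, Sec31a -0.084, Sec24b -0.14, Lman1 -0.067 and Kdelr1 -0.11. Without both libraries numbered 1 they were Srp14 -0.17, Srp72 -0.22, Srprb 0.0035, Sar1b -0.10, Sec13 0.034, Sec24b -0.081, Mia2 -0.054, Tmed10 0.029 and Lman1 -0.19, and the differences in paralog ratio became Sec24a over Sec24b 0.28, Sec24c over Sec24d -0.48, Mia3 over Mia2 0.0069, Sec11a over Sec11c -0.10 and Kdelr2 over Kdelr1 0.58. With single libraries left out, fold changes that changed sign ranged as Sec61b -0.58 to 0.11, Sec61g -0.18 to 0.48, Ssr4 -0.027 to 0.81, Sec23b -0.37 to 0.26, Mia3 -0.96 to 0.33, Tmed2 -0.35 to 0.13, Tmed10 -0.26 to 0.13, Mcfd2 -0.53 to 0.065, Srp9 -0.18 to 0.30, Ssr3 -0.23 to 0.20, Spcs2 -0.60 to 0.40, Kdelr1 -0.12 to 0.29, Sec63 -0.17 to 0.32, Sec11c -0.30 to 0.43, Stt3a -0.091 to 0.31, Stt3b -0.32 to 0.52, Ostc -0.061 to 0.57, Uggt1 -0.029 to 0.46, Sec13 -0.38 to 0.13, Sec31a -0.52 to 0.43, Sec23a -0.63 to 0.90, Sec24a -1.03 to 0.87, Sec24b -0.19 to 0.29, Sec24d -0.32 to 0.60, Lman1 -0.11 to 0.50, Kdelr2 -0.19 to 0.80, Srp14 -0.064 to 0.18, Srp72 -0.075 to 1.02, Srprb -0.16 to 0.13 and Sec11a -0.035 to 0.59. Differences in paralog ratio that did so ranged as Sec24a over Sec24b -0.90 to 0.11, Sec24c over Sec24d -0.33 to 0.53, Stt3a over Stt3b -0.17 to 0.49, Sec11a over Sec11c -0.32 to 0.73, Kdelr2 over Kdelr1 -0.74 to 0.73, Sar1a over Sar1b -0.20 to 0.42 and Sec23a over Sec23b -0.22 to 1.63. The cause of these changes was not tested. Whether equal replicate numbers pair the libraries was not settled. Deviations from the group mean correlated across genes with r of 0.095, 0.034 and -0.15 for numbers 1, 2 and 3. Over the 47 members r was 0.52, 0.050 and 0.51. There each FDM library and NC 1 and NC 3 correlated best with their own number but NC 2 with FDM 3. Deviations cancel out over the 3 libraries of a group, so these correlations are not independent and cannot decide the question. With the number as a replicate block 31 members were above 0, and Srp9 -0.044, Spcs2 -0.14, Stt3b -0.054, Sec31a -0.022 and Sec24a -0.073 changed sign, while the 9 paralog differences are the same by construction. Depth limits Srp72, Sec61b, Spcs1, Sec23a, Sec24a, Mia2 and Kdelr3, which had under 100 counts in at least 1 library.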
